A study of Mus musculus with 23 samples.

Results

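A set of 10 genes that let a cell sense microbes was followed from freshly isolated mouse lung epithelial cells into culture and bacterial exposure. These are Tlr2, Tlr3, Tlr4, Tlr5, Nod1, Nod2, Cd14, Ly96, Lbp and Myd88, taken by symbol from the count tables; they are 10 of the 41073 genes kept. RNA was sequenced in bulk from primary lung cells of wild-type C57BL/6J mice that had been selected for EpCAM, a surface protein of epithelia, and then grown on transwell membranes with their upper face in air. The 23 libraries came from 3 experiments, A, B and C, which the labels call batches. Freshly isolated cells gave 3 libraries (1 per experiment). Cells on the day of airlift, when the upper face was first exposed to air and before any bacteria, gave 6. Cultures left untreated to day 4 gave 7, and cultures given non-typeable Haemophilus influenzae (NTHi), a Gram-negative bacterium of the airways, gave 7 at the same day. All 4 groups shared the wild-type genotype, and the first 3 received no treatment. The sources used here do not give the bacterial strain, its dose, the hours of exposure or the age of the mice. The labels do not say whether replicates were separate animals or cultures, so p-values measure the spread between these libraries, which may be technical.

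Toll-like receptors are membrane proteins that bind conserved microbial molecules at the cell surface or in endosomes, and NOD1 and NOD2 bind fragments of the bacterial cell wall in the cytosol. Endotoxin, the glycolipid of Gram-negative outer membranes, is handed along a chain: LBP extracts it, CD14 receives it, and the complex of TLR4 and MD-2 (encoded by Ly96) signals. MyD88 carries the signal of nearly all Toll-like receptors and of the interleukin-1 receptor family to NF-kB, while TLR3 uses a different adaptor. In lung epithelium these proteins are known as part of the first response to inhaled bacteria, and resident macrophages carry many of the same receptors.

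Libraries held between 32323375 and 39081663 counts. Levels are given as CPM (a count as a share of the library, in the usual unit of RNA sequencing) on library sizes scaled by TMM, a method that assumes most genes do not change. Fresh libraries were dominated by few genes: the 10 genes with most counts took 23.4% to 23.9% of counts there and 7.72% to 9.95% elsewhere. Scaling by library totals in place of TMM therefore put the median log2 difference of all genes at 0.487 for airlift against isolation, 0.49 for day 4 control against isolation and 0.421 for NTHi against isolation, where TMM put it at 0.003, 0.017 and 0.005, and changes from fresh cells are relative to that choice. Control replicate 1 and NTHi replicate 3 of experiment C stood apart from their groups, with a mean correlation to the other libraries of the group of 0.981 and 0.975, against 0.9856 to 0.9935 for the remaining libraries. Epithelial markers were present in every library (Epcam at 229 to 565 CPM). The labels name the cells airway epithelial, and 7 airway markers summed to 157600 to 170800 CPM in fresh cells, beside 86260 to 116200 CPM for 7 markers of alveolar type 2 cells. With NTHi these sums lay at 2121 to 2662 and 2296 to 4913 CPM. Most of each fresh sum came from 1 gene, Scgb1a1 with a mean of 153100 CPM and Sftpc with 63090 CPM. By gene, 2 of the 7 airway markers were called higher and 3 lower with NTHi against isolation. All 7 type 2 markers were called lower there, where 77.5% of all genes were called.

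Between NTHi and control cultures at day 4, the endotoxin carriers rose most: Cd14 by 3.0 ± 0.10 on the log2 scale (± standard error here and below) and Lbp by 2.08 ± 0.07. Nod2, Tlr3, Myd88 and Nod1 rose by 0.27 to 0.65, and Tlr5 fell by 0.55 ± 0.13. The endotoxin receptor pair itself, Tlr4 and Ly96, and Tlr2 did not pass the test. Of the 10 genes 6 were thus called higher and 1 lower (edgeR quasi-likelihood test, adjusted p below 0.05), where 40.5% of the 16337 genes tested were called in either direction, 20.1% higher and 20.4% lower. Their median log2 difference was 0.312, beside 0 over all genes tested. The libraries of both groups did not overlap for 4 of the 10 (Tlr3, Cd14, Lbp and Myd88, all higher with NTHi), as was so for 15.8% of all genes. With library totals in place of TMM, the split over all genes was 2282 higher and 4416 lower, against 3281 and 3338, and 7 of the 10 were still called.

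**Figure D1:**
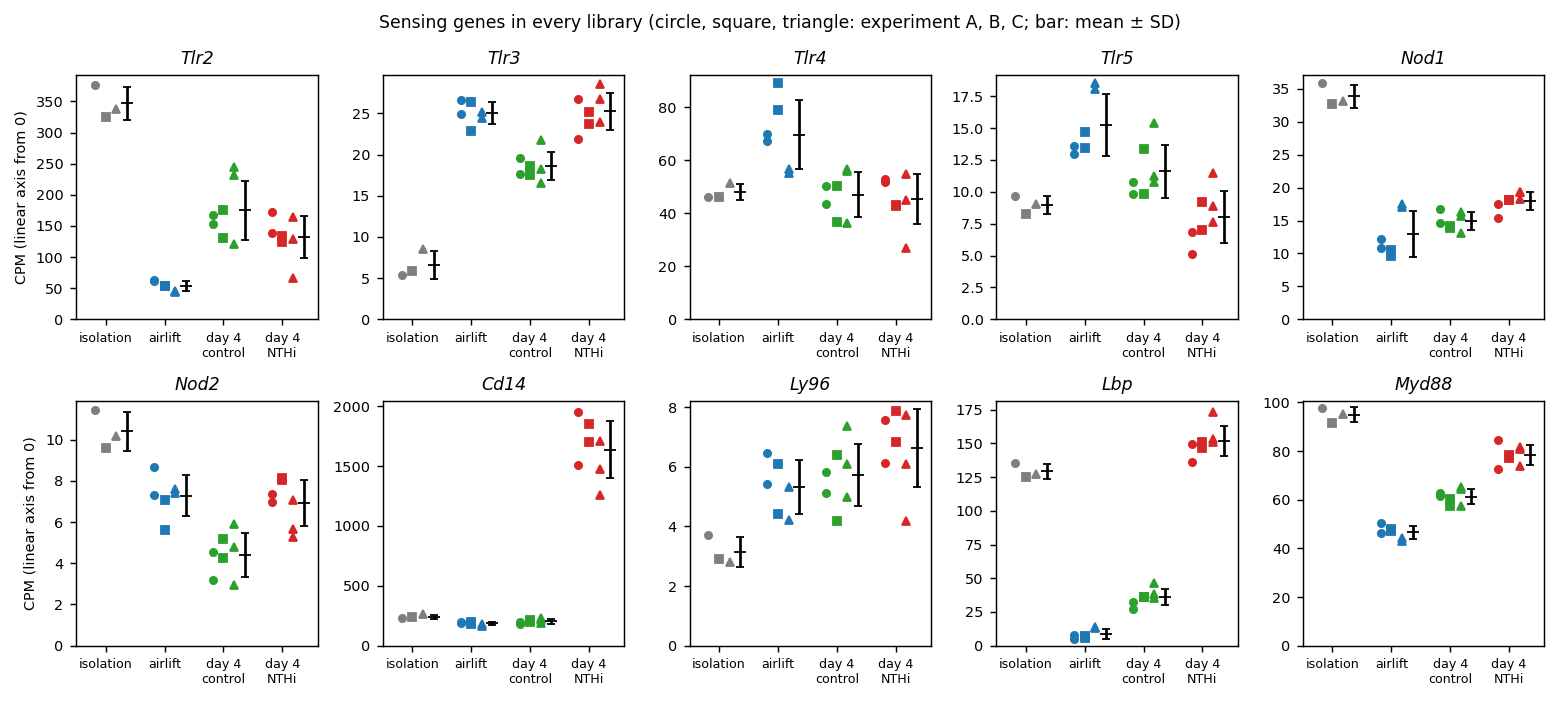
Level of each of the 10 genes in every library, in CPM on a linear axis from 0, by group (isolation n = 3, airlift n = 6, day 4 control n = 7, day 4 NTHi n = 7); circles, squares and triangles are experiments A, B and C, and bars are mean ± SD. Cd14 stands at 1261 to 1956 CPM with NTHi and at 168 to 263 CPM in every other library, while Lbp stands at 125 to 135.5 CPM in fresh cells, 5.21 to 13.9 at airlift and 136.0 to 173 with NTHi.

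The steps before treatment moved all of these genes at least once. From isolation to airlift 4 of the 10 rose (Tlr3, Tlr4, Tlr5 and Ly96) and 6 fell (Tlr2, Nod1, Nod2, Lbp, Myd88 and, with the opposite sign by library totals, Cd14), and the 10 pairs of groups did not overlap. This step changed most of the transcriptome: 74.6% of 18302 genes were called, 37.9% higher and 36.7% lower, and 66.9% had groups that did not overlap, so a count of 10 in 10 is read against that. By library totals, 10131 genes were higher and 4223 lower, and 8 of the 10 were called. From airlift to day 4 control 3 of the 10 rose (Tlr2, Lbp and Myd88) and 4 fell (Tlr3, Tlr4, Tlr5 and Nod2), where 54.5% of all genes were called, 26.9% higher and 27.7% lower. Groups did not overlap for 4 of the 10 (Tlr2, Lbp, Myd88 and Tlr3), beside 28.3% of all genes. Comparisons of successive steps share a group of libraries, the airlift or the control ones, so their values for a gene are not independent.

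**Figure D2:**
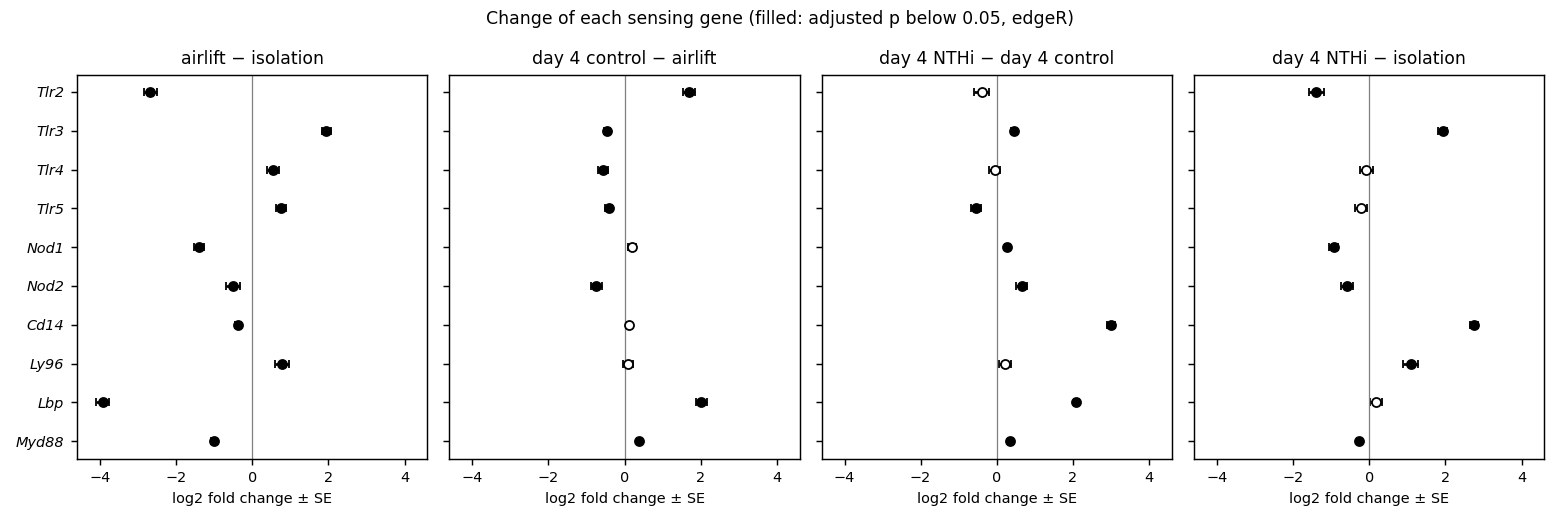
Log2 fold change ± standard error of each gene in 4 comparisons, with filled points at an edgeR adjusted p below 0.05. Lbp, Tlr2 and Myd88 lie left of 0 from isolation to airlift and right of 0 from airlift to day 4 control, and Cd14 lies at 3.0 for NTHi against control.

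Day 4 control cultures had not returned to the fresh state. Against isolation 9 of the 10 were called, 3 higher and 6 lower (of the latter, Cd14 was higher by library totals), where 76.6% of all genes were called (38.8% higher, 37.7% lower). By library totals that split was 10149 genes higher and 4497 lower. With that scaling Cd14 was called higher (0.22, edgeR adjusted p = 0.016). So was Tlr4 (0.46, edgeR adjusted p = 0.0103), which was not called with TMM. Groups did not overlap for 8 of the 10 (all but Tlr4 and Cd14), beside 65.9% of all genes. NTHi cultures against isolation gave 3 higher and 4 lower of the 10 (of the latter, by library totals, Myd88 was higher and Nod2, at -0.17, was not called, adjusted p = 0.351), with 77.5% of 18586 genes called (39% higher, 38.5% lower; 9770 and 5045 genes by library totals). Groups did not overlap for 8 (all but Tlr4 and Tlr5), beside 67.1% of all genes. Against airlift 5 were higher and 2 lower, with 58.1% called (28.6% higher, 29.5% lower; 4265 and 6755 genes by library totals), and groups did not overlap for 6, beside 31.9% of all genes. These pairs were fitted to order the 4 groups for each gene.

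Lbp encodes the lipopolysaccharide-binding protein, an acute-phase protein that takes endotoxin from bacterial membranes. Fresh cells of experiments A, B and C stood at 135.5, 125 and 127 CPM. At airlift the 6 libraries ranged from 5.21 to 13.9 CPM (median 7.66), with the pair from experiment C, at 13.1 and 13.9 CPM, above the other four. Day 4 controls ranged from 27.0 to 46.2 CPM (median 35.8), and NTHi cultures from 136.0 to 173 CPM (median 151). The 4 groups thus formed separate ranges, lowest at airlift and highest with NTHi, although the fresh and NTHi ranges nearly touched. Lbp fell by 3.93 ± 0.17 from isolation to airlift (edgeR adjusted p = 5.34e-13), the largest fall of the 10, rose by 2.02 ± 0.15 to day 4 control (adjusted p = 2.82e-09) and stood 2.08 ± 0.07 higher with NTHi (adjusted p = 5.83e-12). NTHi cultures and fresh cells differed by 0.19 ± 0.16 (adjusted p = 0.282); by library totals this difference was 0.60 and was called (adjusted p = 0.00125).

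Cd14 encodes the co-receptor, anchored to the membrane or secreted, that passes endotoxin to TLR4 and MD-2. Fresh cells stood at 230, 237 and 263 CPM. Airlift libraries ranged from 168 to 201 CPM (median 187), day 4 controls from 180 to 234 CPM (median 201) and NTHi cultures from 1261 to 1956 CPM (median 1701). All 7 NTHi libraries were far above the 16 others, which lay close together. The NTHi change of 3.0 ± 0.10 had an edgeR adjusted p of 4.34e-12. Control and airlift differed by 0.11 ± 0.06 (adjusted p = 0.151). Cd14 fell by 0.37 ± 0.08 from isolation to airlift (adjusted p = 0.000486), but by library totals the sign turned, to 0.12. Against fresh cells, control cultures were lower by a log2 difference of -0.25 ± 0.08 (adjusted p = 0.0073), which turned to 0.22 by library totals and was not called without the fresh library of experiment C (-0.18, adjusted p = 0.0942).

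Tlr4 encodes the endotoxin receptor, and Ly96 its partner MD-2, whose pocket holds the lipid part of endotoxin. Tlr4 stood at 46.2, 46.2 and 51.5 CPM in fresh cells. It ranged from 55.4 to 89.3 CPM at airlift (median 68.6), from 36.3 to 56.7 CPM in day 4 controls (median 50.2) and from 26.8 to 54.9 CPM with NTHi (median 45.1). The 6 airlift libraries were above all fresh ones, and the 3 other groups overlapped. Tlr4 rose by 0.55 ± 0.16 at airlift (edgeR adjusted p = 0.00472) and fell by 0.56 ± 0.12 to day 4 control (adjusted p = 0.000809). The rise at airlift was not called without experiment B (0.36, adjusted p = 0.0634), whose airlift pair, at 78.9 and 89.3 CPM, was the highest. NTHi and control cultures differed by -0.06 ± 0.14 (adjusted p = 0.785).

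Ly96 was low in all groups and had 81 to 303 counts per library. Fresh cells stood at 3.72, 2.89 and 2.81 CPM. Airlift libraries ranged from 4.21 to 6.46 CPM (median 5.37), day 4 controls from 4.20 to 7.39 CPM (median 5.84) and NTHi cultures from 4.17 to 7.89 CPM (median 6.85). The fresh libraries were below all others, and the cultured groups overlapped. Ly96 rose by 0.78 ± 0.19 at airlift (edgeR adjusted p = 0.00104). The differences after that step were 0.09 ± 0.14 for control against airlift (adjusted p = 0.584) and 0.21 ± 0.15 for NTHi against control (adjusted p = 0.292). Without experiment C the NTHi difference was 0.40 and was called (adjusted p = 0.0387).

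Since these 4 genes serve one chain, their levels were also set per kilobase of exon. Exon lengths came from an annotation of another mouse build and were used only as lengths. Per kilobase, Cd14 was the highest of the 10 genes in each group, at 148 ± 10.4 CPM per kb in fresh cells (SD, n = 3), 114 ± 7.85 at airlift (SD, n = 6), 124 ± 11.5 in day 4 controls (SD, n = 7) and 997 ± 145 with NTHi (SD, n = 7). The gene next below it with NTHi was Lbp, at 45.9 ± 3.38 CPM per kb. The ratio of Cd14 to Tlr4 per kilobase went from 16.9 ± 0.246 in fresh cells to 9.12 ± 1.31 at airlift, 14.7 ± 2.12 in day 4 controls and 123 ± 22.4 with NTHi. The lowest NTHi library, at 94.9, was above the highest control, at 18.3. The ratio of Ly96 to Tlr4 was 0.570 ± 0.115, 0.673 ± 0.124, 1.06 ± 0.120 and 1.31 ± 0.384 in the same order, and its control and NTHi ranges overlapped (0.876 to 1.19 and 0.80 to 1.97).

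Tlr2 encodes the receptor of bacterial lipoproteins, which works in pairs with TLR1 or TLR6. Fresh cells stood at 377, 325 and 339 CPM. Airlift libraries ranged from 43.3 to 63.3 CPM (median 54.0), day 4 controls from 120.5 to 245 CPM (median 168) and NTHi cultures from 67.2 to 172 CPM (median 134). Fresh cells were above, and airlift libraries below, every day 4 library, and control and NTHi libraries overlapped. Tlr2 fell by 2.67 ± 0.18 at airlift (edgeR adjusted p = 1.31e-10) and rose by 1.69 ± 0.15 to day 4 control (adjusted p = 3.31e-08). With NTHi it differed from control by -0.40 ± 0.20 (adjusted p = 0.12). The lowest library of each day 4 group was one of those that stood apart, control replicate 1 (120.5 CPM) and NTHi replicate 3 (67.2 CPM) of experiment C. Without both, the difference was -0.34 and was called (adjusted p = 0.0127). It was also called with no filter on low counts (-0.40, adjusted p = 0.0252) and with counts summed per experiment and group (-0.35, adjusted p = 0.0178). Per kilobase Tlr2 exceeded Tlr4 in all groups, by 13.2 ± 1.47 times in fresh cells, 1.42 ± 0.224 times at airlift, 6.66 ± 0.745 times in controls and 5.25 ± 0.506 times with NTHi.

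The start of the Tlr2 gene is shown because Tlr2 had the widest swing of the receptors. Promoter windows, of 250 bases before and 50 after the annotated start, were found for 6 of the 10 genes (Tlr2, Tlr3, Tlr5, Nod1 with 2 starts, Nod2 and Myd88; RefSeq, GRCm38.p6). Tlr4, Cd14, Ly96 and Lbp had no entry. Both strands were searched for the kappa B motif of NF-kB (in 8.5% of all 32851 windows), the AP-1 motif TGANTCA (7.8%) and the core of the interferon-stimulated element, GAAANNGAA (8.6%). The Tlr2 window held 3 kappa B matches on its sense strand, of which the pair at 173 and 172 bases before the start overlap. Both are in the first stretch (chr3:83841768-83841858, minus strand), and the other match, 8 bases before the start, is in the second (chr3:83841597-83841626, minus strand). That other match lies within an exon of Tlr2 in the annotation that gave the exon lengths. Capitals mark the matches.
Tlr2 upstream: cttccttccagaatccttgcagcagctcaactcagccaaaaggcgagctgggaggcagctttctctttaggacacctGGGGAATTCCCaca
Tlr2 start: ccctgacctgGGGACATCCCcttccctcac
A match describes the letters only. No match of the 3 motifs was found in the windows of Tlr5, Nod1 and Nod2.

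Genes of other cell types were also measured, since macrophages are known to carry Tlr2. Ptprc, the gene of the leukocyte surface protein CD45, stood at 156 to 188 CPM in fresh cells, 53.9 to 64.3 at airlift, 45.1 to 91.0 in day 4 controls and 13.2 to 40.7 with NTHi. The 15 macrophage and monocyte markers summed to 2458 to 2828, 1013 to 1126, 949.6 to 1959 and 332.5 to 1259 CPM in the same order, and none was at 0 in a whole group. Much of the fresh sum was Lyz1, with means of 1405, 82.4, 14.4 and 8.38 CPM, so the sums mostly follow that gene between fresh and cultured cells. In controls against isolation, 3 of the 15 were higher and 8 lower (76.6% of all genes called). With NTHi against control 11 of these 15 fell and 2 rose (Adgre1 and Itgam), beside 40.5% of all genes called. Ptprc fell by a log2 difference of -1.02 ± 0.21 (edgeR adjusted p = 0.0013). From isolation to airlift, where Tlr2 fell, 9 of the 15 fell and 3 rose (74.6% of all genes called), and Ptprc fell by 1.53 ± 0.15. From airlift to day 4 control, where Tlr2 rose, 8 fell and 6 rose (54.5% of all genes called). Ptprc differed by 0.19 ± 0.12 in that step (edgeR adjusted p = 0.202). With NTHi against airlift Tlr2 was higher, while 11 of the 15 were lower and 2 higher (58.1% of all genes called). Ptprc was lower there by a log2 difference of -0.80 ± 0.18. In the NTHi library with the lowest Tlr2 and Tlr4, Ptprc was at 13.2 CPM, its lowest value. The 8 neutrophil markers summed to 23.9 to 46.8, 7.12 to 10.5, 4.42 to 7.80 and 6.59 to 24.7 CPM. With NTHi 2 of the 4 tested rose against control and 1 fell (Cxcr2), beside 40.5% of all genes called. S100a8 rose by 2.40 ± 0.26, from 2.69 ± 0.970 to 14.2 ± 4.45 CPM, and made up most of the NTHi sum. S100a9 rose by 0.95 ± 0.28 at a low level, from 0.565 ± 0.244 to 1.06 ± 0.344 CPM. Mpo was at 0 in all day 4 libraries, as were Elane and Cxcr2 in all NTHi ones. Lymphocyte markers (8 genes) summed to 57.6 to 71.4, 19.9 to 24.3, 16.4 to 33.6 and 6.49 to 18.8 CPM, and endothelial markers (6 genes) to 72.7 to 86.8, 17.0 to 32.9, 22.0 to 40.4 and 10.2 to 17.2 CPM. Mesenchymal markers (6 genes) went the other way, with 16.9 to 29.6, 25.5 to 69.6, 182 to 439.6 and 178 to 482 CPM. All 6 rose from airlift to day 4 control, where 54.5% of all genes were called. Cd14 and Lbp were at their highest in the NTHi group, where Ptprc was at its lowest. In fresh cells, where Ptprc was highest, Lbp stood at 125 to 135.5 CPM, beside 136.0 to 173 CPM with NTHi, and Cd14 at 230 to 263 CPM. The part of other cells in the levels of Tlr2, Tlr4, Cd14 and Lbp was not tested. In bulk RNA fewer cells of a type and less RNA per cell cannot be told apart.

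**Figure D3:**
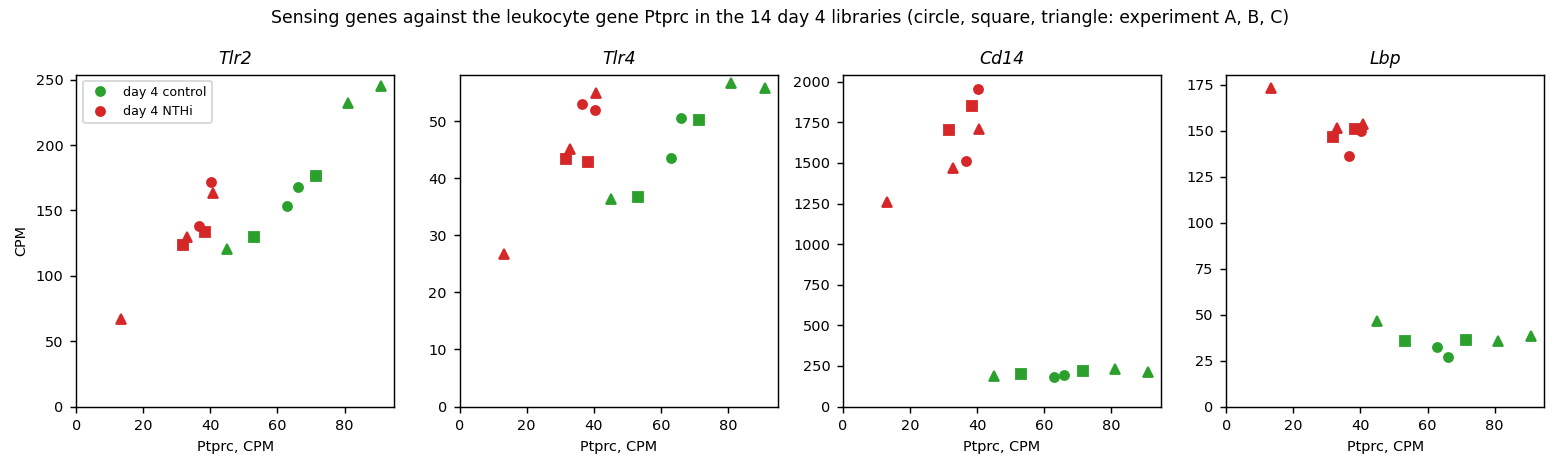
Tlr2, Tlr4, Cd14 and Lbp (vertical axes, CPM) against Ptprc (horizontal axis, CPM) in the 14 day 4 libraries; green is control, red is NTHi, and circles, squares and triangles are experiments A, B and C. The 7 controls have the same order by Ptprc as by Tlr2, and the NTHi library with the least Ptprc has the least Tlr2, while Cd14 and Lbp form 2 separate levels, high in all 7 NTHi libraries.

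Tlr5 encodes the receptor of flagellin, the protein of bacterial flagella. Fresh cells stood at 9.67, 8.26 and 9.05 CPM. Airlift libraries ranged from 13.0 to 18.5 CPM (median 14.2), day 4 controls from 9.81 to 15.4 CPM (median 10.8) and NTHi cultures from 5.09 to 11.4 CPM (median 7.64). Airlift libraries were above all fresh and all NTHi ones, and control and NTHi ranges overlapped. Tlr5 rose by 0.76 ± 0.13 at airlift (edgeR adjusted p = 4.6e-05), fell by 0.42 ± 0.10 to day 4 control (adjusted p = 0.00144) and fell by 0.55 ± 0.13 with NTHi (adjusted p = 0.00247). It was the only one of the 10 called lower with NTHi. Control cultures stood above fresh cells by 0.34 ± 0.13 (adjusted p = 0.0232), a call that was lost in 5 alternatives, among them the fit on all 23 libraries (0.33, adjusted p = 0.0535), the one without the fresh library of experiment B (0.30, adjusted p = 0.099) and that without the fresh library of experiment C (0.25, adjusted p = 0.158).

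Tlr3 encodes the endosomal receptor of double-stranded RNA. Fresh cells stood at 5.33, 5.93 and 8.56 CPM. Airlift libraries ranged from 22.9 to 26.6 CPM (median 25), day 4 controls from 16.5 to 21.77 CPM (median 18.3) and NTHi cultures from 21.89 to 28.5 CPM (median 25.2). Fresh libraries were the lowest, controls lay between, and airlift and NTHi libraries shared the top range. Tlr3 rose by 1.94 ± 0.12 at airlift (edgeR adjusted p = 8.6e-11), fell by 0.45 ± 0.08 to day 4 control (adjusted p = 0.000172) and rose by 0.44 ± 0.07 with NTHi (adjusted p = 1e-04). NTHi and airlift groups had means of 25.25 ± 2.26 (SD, n = 7) and 25.04 ± 1.37 CPM (SD, n = 6) and were not called different (standard error of the log2 difference 0.08, adjusted p = 1). Its window held 1 kappa B match, 211 bases before the start (chr8:45410572-45410601, minus strand, match in capitals), shown beside that of Tlr2, the other receptor with one. The Tlr3 match lies within an exon of the gene in the annotation that gave the exon lengths.
Tlr3 match: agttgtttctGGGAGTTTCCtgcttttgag

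Nod1 and Nod2 encode the cytosolic sensors of peptidoglycan, the polymer of the bacterial wall. Nod1 binds fragments typical of Gram-negative bacteria, and Nod2 binds muramyl dipeptide, found in nearly all bacteria. Nod1 stood at 35.8, 32.6 and 33.1 CPM in fresh cells. It ranged from 9.69 to 17.6 CPM at airlift (median 11.5), from 13.1 to 16.7 CPM in day 4 controls (median 14.7) and from 15.4 to 19.4 CPM with NTHi (median 18.2). Fresh cells were above all cultures, and the cultured groups overlapped; the airlift pair of experiment C, at 17.0 and 17.6 CPM, was above the other four, at 9.69 to 12.2. Nod1 fell by 1.40 ± 0.12 at airlift (edgeR adjusted p = 8.62e-09). It differed by 0.19 ± 0.10 between control and airlift (adjusted p = 0.122), and without experiment C by 0.45 (adjusted p = 6.54e-05); leaving out airlift replicate 1 or 2 or control replicate 1 of that experiment also made it called, at 0.26, 0.27 and 0.25. With NTHi Nod1 rose by 0.27 ± 0.07 (adjusted p = 0.00436), a call lost without experiment B (0.22, adjusted p = 0.0762) and without experiment C (0.22, adjusted p = 0.0641).

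Nod2 stood at 11.5, 9.60 and 10.2 CPM in fresh cells. It ranged from 5.64 to 8.67 CPM at airlift (median 7.37), from 2.95 to 5.90 CPM in day 4 controls (median 4.55) and from 5.26 to 8.13 CPM with NTHi (median 7.08). Controls were the lowest group, with some overlap with their neighbours, and NTHi cultures lay in about the airlift range. Nod2 fell by 0.74 ± 0.14 from airlift to day 4 control (edgeR adjusted p = 0.000262) and stood 0.65 ± 0.15 higher with NTHi than in control (adjusted p = 0.00238). The fall of 0.50 ± 0.18 at airlift (adjusted p = 0.0158) was lost under several settings: by library totals it was -0.02, and without experiment A, experiment B or the fresh library of experiment A it was -0.49, -0.47 and -0.42 with adjusted p-values of 0.0531, 0.0768 and 0.0941. Per kilobase Nod2 was the lowest of the 10 genes in all cultured groups, from 0.911 to 1.51 CPM per kb.

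Myd88 encodes the adaptor that links most Toll-like receptors to the kinases IRAK4 and IRAK1. Fresh cells stood at 97.7, 91.7 and 95.2 CPM. Airlift libraries ranged from 43.1 to 50.3 CPM (median 46.8), day 4 controls from 57.2 to 65.1 CPM (median 61.3) and NTHi cultures from 72.8 to 84.4 CPM (median 78.3). The 4 groups did not overlap in any pair, and Myd88 was the only one of the 10 for which each pair of neighbours in that order was also called. It fell by 1.01 ± 0.06 at airlift (edgeR adjusted p = 2.33e-11), rose by 0.39 ± 0.05 to day 4 control (adjusted p = 2.1e-06) and stood 0.36 ± 0.04 higher with NTHi than in control (adjusted p = 1.12e-05). NTHi cultures stayed below fresh cells by a log2 difference of -0.27 ± 0.06 (adjusted p = 0.00011), which turned to 0.14 by library totals (adjusted p = 0.0183). Myd88 shares 290 of its 2027 exon bases with Acaa1a, a gene of peroxisomal fat breakdown on the opposite strand, in the same annotation of another build. The sources used here do not say whether the counting used strand, so the split of reads between them is uncertain. Acaa1a stood at 208 ± 7.89, 86.2 ± 7.76, 122 ± 5.25 and 138 ± 3.70 CPM (SD, n = 3, 6, 7 and 7), in the same order of groups as Myd88.

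The Myd88 window held 1 match to the interferon-stimulated core, 40 bases before the start, and no match to kappa B or AP-1. It is shown in full up to the first exon base (chr9:119340042-119340268, minus strand, match in capitals), since Myd88 was the gene whose 4 groups were all called apart.
Myd88 upstream: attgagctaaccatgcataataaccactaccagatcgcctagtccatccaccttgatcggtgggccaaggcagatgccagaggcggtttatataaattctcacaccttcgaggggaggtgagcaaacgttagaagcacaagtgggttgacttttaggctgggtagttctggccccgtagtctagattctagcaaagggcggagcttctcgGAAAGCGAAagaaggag

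The NTHi differences were similar in size in the 3 experiments for the genes with the clearest changes. Cd14 differed by 3.21 ± 0.17 in A, 3.09 ± 0.17 in B and 2.80 ± 0.14 in C. Lbp differed by 2.26 ± 0.13, 2.04 ± 0.13 and 1.99 ± 0.10, and Myd88 by 0.34 ± 0.09, 0.41 ± 0.09 and 0.34 ± 0.07. Tlr3 and Tlr5 kept their sign as well, at 0.38, 0.43 and 0.48 and at -0.79, -0.51 and -0.43, and Nod2 stood at 0.89 ± 0.27, 0.78 ± 0.27 and 0.40 ± 0.22. Nod1 was near 0 in A, at 0.06 ± 0.11, beside 0.37 ± 0.11 in B and 0.34 ± 0.09 in C. Ly96 stood at 0.32 ± 0.28, 0.48 ± 0.28 and -0.04 ± 0.23. Tlr2 spread most, at -0.05 ± 0.36, -0.25 ± 0.36 and -0.73 ± 0.30, and Tlr4 went from 0.16 ± 0.28 in A to -0.23 ± 0.23 in C. None of the 10 differed between experiments by the edgeR interaction test (adjusted p = 0.9997 for each), which called 0 of 16337 genes, with 675 (4.13%) at an unadjusted p below 0.05. DESeq2 called 5 genes.

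**Figure D4:**
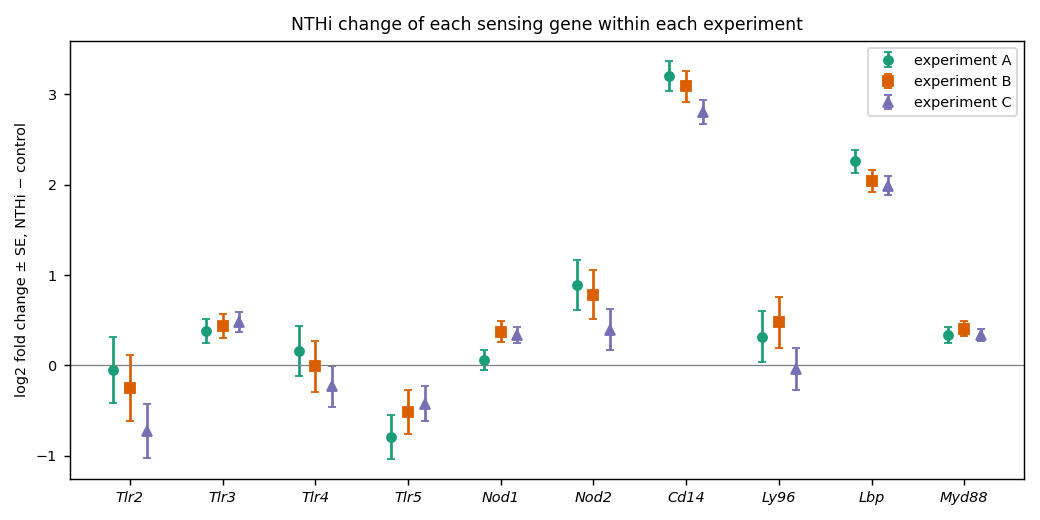
Log2 fold change ± standard error of NTHi against control within experiments A (circles), B (squares) and C (triangles) for each gene. Cd14 lies between 2.80 and 3.21 and Lbp between 1.99 and 2.26, while Tlr2 runs from -0.05 to -0.73.

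Other genes of the same pathways were read in the NTHi comparison from lists by role, beside the 40.5% of all genes called. Of 7 other Toll-like receptors tested 0 rose and 3 fell. Tlr8, a relative of the RNA receptor TLR7, fell from 50.3 ± 12.8 in control to 17.1 ± 5.05 CPM with NTHi (± SD over 7 libraries each, as below), by a log2 difference of -1.56 ± 0.22. Tlr12 fell by 0.98 ± 0.30, and Tlr1, a partner of TLR2, by 0.66 ± 0.23. Both were at low levels, with Tlr12 at means of 0.416 CPM in control and 0.210 CPM with NTHi. The means of Tlr1 were 1.39 and 0.882 CPM. Tlr6, the other partner, differed by -0.56 ± 0.23 (adjusted p = 0.0677). Of 8 receptor chaperones and co-receptors 0 rose and 4 fell: Ly86 and Cd180, which encode a pair of proteins related to MD-2 and TLR4, by 1.52 ± 0.24 and 1.40 ± 0.27, Trem2 by 0.70 ± 0.21 and Cd36, a scavenger receptor that aids TLR2, by 0.58 ± 0.21. Several of these receptors are known from leukocytes, and Ptprc and 11 of 15 macrophage markers fell in the same comparison; their part was not tested.

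Downstream of the receptors, 8 of 21 adaptors and kinases rose and 2 fell, with a median log2 difference of 0.069. Ripk2, the kinase that NOD1 and NOD2 signal through, rose from 15.0 ± 1.39 to 28.3 ± 1.58 CPM (0.91 ± 0.06, edgeR adjusted p = 1.17e-08). Ikbke, a kinase of the interferon branch, rose by 0.91 ± 0.06 and Irf7, a transcription factor of that branch, by 1.37 ± 0.13. Tirap, which brings MyD88 to TLR2 and TLR4, rose by 0.27 ± 0.05. Ticam2, the adaptor that takes TLR4 signals to the interferon branch, fell from 9.54 ± 2.47 to 3.45 ± 0.930 CPM (-1.47 ± 0.21), and Card9 fell by 1.06 ± 0.21. Of 11 negative regulators 3 rose and 1 fell. Irak3, a kinase-like protein that restrains MyD88 signalling, rose from 11.2 ± 2.98 to 27.7 ± 7.60 CPM (1.29 ± 0.20, adjusted p = 0.000109), Dok2 rose by 0.44 ± 0.11 and Il1rl1 by 0.40 ± 0.10, while Ptpn6 fell by 0.60 ± 0.09. The part of leukocytes in the changes of these lists and of those that follow was not tested either.

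Of 16 NOD-like receptor and inflammasome genes 4 rose and 6 fell. Casp4, whose protein binds endotoxin in the cytosol, rose from 22.9 ± 1.78 to 41.1 ± 4.88 CPM (0.84 ± 0.07, edgeR adjusted p = 1.24e-07), and Gsdmd, the pore protein it cleaves, by 0.56 ± 0.06. Nlrp3 rose by 0.97 ± 0.22 and Nlrc5 by 0.49 ± 0.11. Nlrp1b fell by 2.94 ± 0.41 from a low level (0.987 ± 0.407 CPM in controls), Nlrp10 by 0.68 ± 0.10, and Naip1 and Naip6 by 1.42 ± 0.27 and 0.94 ± 0.15. The Naip genes are near-identical copies, so reads may be split wrongly among them. Of 5 transporters that can bring NOD ligands into the cytosol 0 rose and 1 fell, Slc15a2 by 0.44 ± 0.07. Slc15a3 differed by -0.15 ± 0.22 (adjusted p = 0.632).

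Of 12 other genes that bind or degrade endotoxin and peptidoglycan 7 rose, 2 fell and 3 did not pass the test, with a median log2 difference of 1.132. Of the peptidoglycan recognition proteins, secreted proteins that bind or cut the bacterial wall, 3 rose: Pglyrp1 from 13.98 ± 2.49 to 89.9 ± 7.28 CPM (2.69 ± 0.07, edgeR adjusted p = 3.14e-13), Pglyrp3 by 3.97 ± 0.15 and Pglyrp2 by 2.40 ± 0.13. Aoah, the enzyme that inactivates endotoxin by removing acyl chains, rose from 4.71 ± 1.62 to 27.3 ± 9.73 CPM (2.54 ± 0.29). Sftpd, a surfactant lectin that binds bacterial sugars, rose by 1.11 ± 0.04. Marco, a macrophage scavenger receptor of bacteria, fell from 393 ± 93.0 to 50.1 ± 19.9 CPM (-2.99 ± 0.27), and Clec7a fell by 0.70 ± 0.26.

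**Figure D5:**
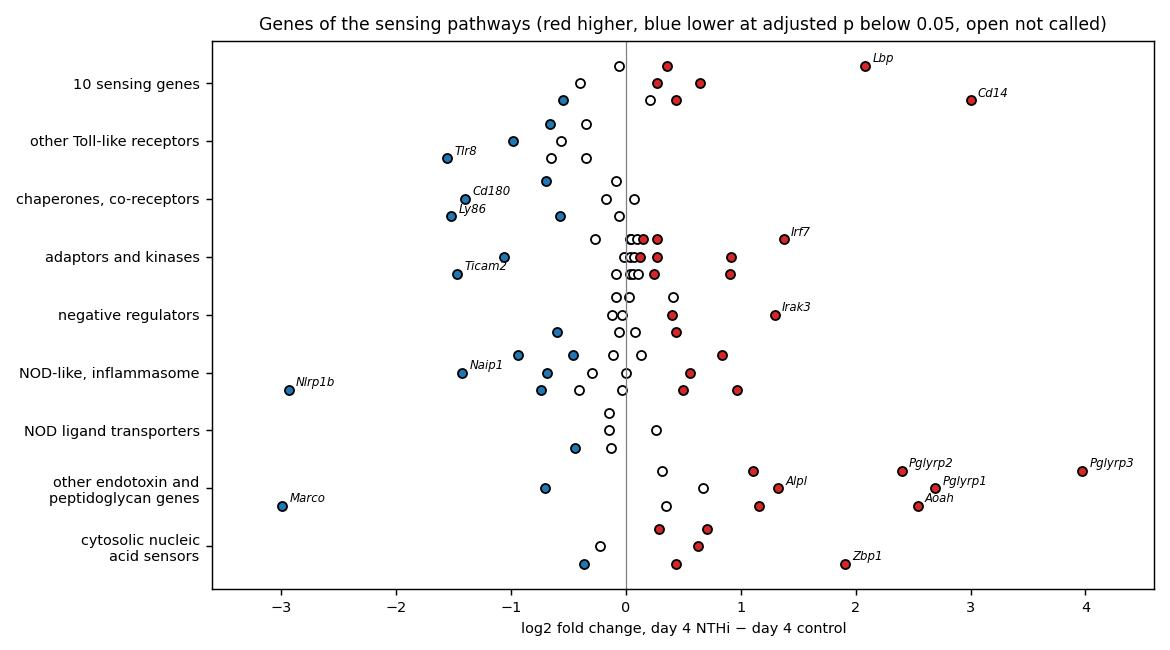
Log2 fold change, day 4 NTHi minus day 4 control, of the 10 sensing genes and of 8 lists of related genes (1 point per gene; red higher and blue lower at an edgeR adjusted p below 0.05, open not called). Cd14 and Lbp lie at 3.0 and 2.08, no gene in the rows of other Toll-like receptors and co-receptors is red, and Pglyrp3 at 3.97 and Marco at -2.99 are the outermost points.

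The same lists over the earlier steps gave other splits. From isolation to airlift (74.6% of all genes called; the median of all genes is 0.487 by library totals) 9 of 21 adaptors and kinases rose and 9 fell. Ikbke, Irf7 and Tirap rose by 1.71 ± 0.11, 2.18 ± 0.14 and 1.32 ± 0.09, and Irak2, a kinase recruited by MyD88, fell by 1.45 ± 0.07. Ripk2 fell by 0.62 ± 0.08, beside the fall of Nod1. Of 5 transporters of NOD ligands 4 fell, with Slc15a2 at -3.09 ± 0.10, Slc15a1 at -2.39 ± 0.21 and Slc15a3 at -0.63 ± 0.15. Casp4 and Nlrp3 fell by 1.61 ± 0.09 and 2.93 ± 0.16, and Peli1, a ubiquitin ligase of the pathway, by 2.05 ± 0.07. From airlift to day 4 control (54.5% called) 10 of 12 other endotoxin and peptidoglycan genes rose, among them Marco by 1.70 ± 0.14, Sftpd by 1.11 ± 0.06 and Aoah by 0.93 ± 0.20, and Pglyrp1 fell by 1.41 ± 0.09. Irak3 rose by 1.02 ± 0.14, and Irf7 fell by 2.18 ± 0.10.

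By the order of their 4 group means in TMM-scaled CPM the genes fell into several patterns. Tlr2, Nod1, Nod2 and Myd88 were highest in fresh cells, Tlr4 and Tlr5 at airlift, and Cd14, Lbp, Ly96 and Tlr3 with NTHi. For 5 the lowest mean was at airlift (Tlr2, Nod1, Cd14, Lbp and Myd88), for 2 in fresh cells (Tlr3 and Ly96), for 2 with NTHi (Tlr4 and Tlr5) and for Nod2 in day 4 controls. Some neighbours in the order were not called different. These were control and NTHi for Tlr2, NTHi and airlift for Tlr3 and Nod2, and isolation and NTHi for Tlr5 and Lbp. Control and airlift were not called apart for Nod1 and Cd14. For Tlr4 the pairs were isolation and control as well as control and NTHi. For Ly96 they were NTHi and control as well as control and airlift. The isolation and NTHi ranges of Lbp did not overlap, although that pair was not called. The place of fresh cells in these orders depends on the scaling. By library totals, log2 differences from fresh cells with NTHi were 0.14 for Myd88, 0.34 for Tlr4, 0.20 for Tlr5 and 0.60 for Lbp. Those of Cd14 were 0.12 at airlift and 0.22 in control, and that of Nod2 at airlift was -0.02.

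The genes whose log2 CPM followed each of the 10 most closely over the 23 libraries are given as a description, since libraries share group and experiment. For Cd14 they were Lacc1, Cxcl16 and Ccl20, with r of 0.986, 0.982 and 0.981, and 0.993, 0.991 and 0.987 over the 14 day 4 libraries. For Lbp they were Cnnm2, Cd44 and Gpr153 (0.976, 0.973 and 0.971), and for Myd88 Arg2, Itih4 and Tnf (0.982, 0.982 and 0.978). Tlr3 was closest to B3gnt3, Eif2ak2 and Mitd1 (0.982, 0.981 and 0.977), and Tlr2 to Atp6ap2, Ralgds and Tacc1 (0.977, 0.976 and 0.971). Nod2 was nearest to Cd83, H2-Q6 and H2-K1 (0.916, 0.914 and 0.896), and Nod1 to Bhlhe40, Tmem164 and Slc41a1 (0.949, 0.946 and 0.946). Over the 14 day 4 libraries alone, 9 of the 30 pairs had an r lower by more than 0.1, most of all Ly96 with Snx6 (0.848 to 0.548) and Nod1 with Bhlhe40 (0.949 to 0.622) and Slc41a1 (0.946 to 0.649). Among the genes searched, Tlr4, Tlr5 and Ly96 had none above 0.890: their nearest were Spire1 (0.885), Ccnd1 (0.890) and Crcp (0.862).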

How the data were processed

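RNA of 23 libraries was sequenced. For each experiment the authors deposited 1 table of gene counts, in whole numbers with no scaling. Per the submitters' processing notes STAR, DESeq2 and the build GRCm39 were used; no versions were given. For the counting tool and its use of strand: not given in the sources used here. Of the lines of each table, 25 broken ones (6 genes, none described here) were dropped. Of counts below 20, 69.3% to 74.9% were even, so both reads of a pair may have been counted. All replicate pairs differed by more than sampling noise.

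Each comparison was fitted over all genes with edgeR 4.0.16 in R 4.3.3 (filterByExpr, minimum count 10, TMM, quasi-likelihood F-test, group and experiment as terms, Benjamini-Hochberg adjusted p below 0.05). NTHi was compared with control on 14 libraries, the untreated stages on 16, and NTHi with earlier stages on 23. The standard error is the log2 fold change over the square root of F. Likeness used Pearson's r of log2 CPM (prior count 2). The procedure was tested on simulated data. The 10 genes, the lists, the naming rule (up to 4 genes per list and direction with the smallest p, and 8 set genes) and the tests were chosen with earlier results of these data known. Alternatives were DESeq2 1.42.0 and its size factors, library totals, no filter, no experiment term, summed or halved counts, a replicate block, and leaving out libraries or experiments. The one without 2 libraries that stood apart was added after seeing the data.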

Additional observations from a re-analysis of the deposited data

Results flagged for a closer look

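Tlr4 in NTHi replicate 3 of experiment C stood at 26.8 CPM, and the nearest of the other 6 NTHi libraries stood at 42.9 CPM. That gap took 0.572 of the group's range, above the limit of 0.568 for 7 samples. It was the only such library among 30 combinations of gene and group tested, where chance alone gives about 1 in 20. The same library had the lowest Tlr2 (67.2 CPM) and Ptprc (13.2 CPM) of the NTHi group. Without it the NTHi difference of Tlr4 was 0.05 in place of -0.06.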

How the results depend on the processing

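The number of the 10 genes called stayed within 1.5 times its main value in each comparison under every alternative run, as did the counts over all genes, except the count of genes whose NTHi change differed between experiments, which was 0 and became 5 with DESeq2, 5 with no filter and 1 without the 2 libraries that stood apart. For NTHi against control 262 of 270 values of single genes kept direction and side of the threshold; the counts were 274 of 280 for airlift against isolation, 283 of 290 for control against airlift, 265 of 280 for control against isolation, 330 of 340 for NTHi against isolation and 324 of 350 for NTHi against airlift.

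Values that changed sign were mostly near 0, and the cause was not tested. Library totals moved comparisons with fresh cells, by construction of the scaling: Cd14 went to 0.12 at airlift and 0.22 in control, Tlr4 to 0.46 in control and 0.34 with NTHi, and with NTHi Tlr5 went to 0.20 and Myd88 to 0.14. Tlr4 against isolation in control cultures was 0.0478 with no filter, 0.0064 with summed counts and 0.0323 without the 2 libraries that stood apart, with leave-one-out values from -0.0821 to 0.0905. Tlr4 with NTHi was 0.0729 against control without experiment C (leave-one-out -0.1327 to 0.0503), and against isolation 0.0518 without experiment C and 0.0158 without the 2 libraries (leave-one-out -0.1425 to 0.0356). Tlr5 with NTHi against isolation was 0.0054 without experiment A, Ly96 in control against airlift -0.0615 without experiment C, and Nod2 with NTHi against airlift 0.09 without experiment C. Tlr3 with NTHi against airlift was 0.0062 with no filter, 0.0121 with no experiment term, 0.0156 with summed counts, 0.0416 without experiment A and 0.0050 without experiment B (leave-one-out -0.0266 to 0.0339).

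Ly96 with NTHi against airlift (0.33, adjusted p = 0.057) was called under 8 alternatives, 6 of them leaving out 1 library (0.33 to 0.41).

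Deviations of same-numbered NTHi and control libraries correlated at 0.221 in A, 0.403 in B, and -0.775, 0.384 and -0.592 in C. The negative values belong to replicates 1 and 3, which hold the 2 libraries that stood apart. These few values cannot tell whether replicate numbers pair the samples. With experiment and number as a replicate block, 5982 genes were called for NTHi against control, 8768 for control against airlift and 9606 for NTHi against airlift, and 7 of the 10 in each; no call of the 10 changed. Fresh libraries carry no number, so they had no such fit. Depth limits Ly96 and Nod2 most, since they had the fewest counts.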

Other observations

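Cytosolic sensors of nucleic acids, which work beside the endosomal receptor of double-stranded RNA, moved over the stages too. From isolation to airlift 6 of 7 tested rose and 0 fell, where 74.6% of all genes were called: Ifih1 and Rigi, sensors of double-stranded RNA, by 1.54 ± 0.07 and 1.51 ± 0.08, Zbp1 by 2.81 ± 0.16 and Sting1 by 0.74 ± 0.06. From airlift to day 4 control 2 rose and 4 fell (54.5% of all genes called), with Zbp1 at -1.33 ± 0.10, Dhx58 at -1.42 ± 0.09 and Ifih1 at -0.64 ± 0.05. With NTHi 5 rose and 1 fell (40.5% called). Zbp1 stood at 6.85 ± 1.22 CPM in control and 25.7 ± 3.67 CPM with NTHi (± SD over 7 libraries each; log2 difference 1.91 ± 0.12, ± standard error), and Sting1 at 64.4 ± 2.94 and 99.7 ± 7.77 CPM (0.63 ± 0.04), while Mavs, the adaptor of the RNA sensors, fell by 0.37 ± 0.04.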
